A study of Mus musculus with 18 samples.

Results

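Hao1 and 4 enzymes of the same route, Agxt, Grhpr, Hoga1 and Prodh2, were followed across the livers of 18 female mice. They are 5 of the 55536 genes counted. Hao1 was picked for its near complete loss with TCDD, so its levels with and without TCDD are given as a description and carry no test. The other 4 were picked by function, as enzymes that make or remove glyoxylate or break down hydroxyproline, and were tested in every comparison.

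All mice were of a C57BL/6 background and were gavaged with peanut oil (vehicle) or with TCDD (a dioxin and potent ligand of the aryl hydrocarbon receptor, AHR) at 100 µg/kg every 4 days until liver was taken at day 92. WT mice are AhRfl/fl, with a floxed Ahr gene and no deletion. dHep mice (AhRΔHep) lack AHR in hepatocytes and dHSC mice (AhRΔHSC) lack it in hepatic stellate cells. The driver of each deletion and the age of the mice are not given in the sources used here. Each genotype had 3 mice with vehicle and 3 with TCDD, and each library is 1 mouse, named by its number in the label.

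Glyoxylate is a small, reactive acid made mainly in the liver. Hao1, glycolate oxidase, makes it in peroxisomes from glycolate, with hydrogen peroxide as by-product. Prodh2 and Hoga1 make it in mitochondria from hydroxyproline, the amino acid released when collagen is broken down. Agxt turns glyoxylate into glycine, and Grhpr reduces it back to glycolate. What escapes them is oxidised by lactate dehydrogenase to oxalate, which forms kidney stones. Loss of AGXT, GRHPR or HOGA1 causes the primary hyperoxalurias in humans, and HAO1 is silenced by drug to treat the form due to AGXT loss.

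Total counts per library ran from 12706490 to 27240877. In 5 libraries, dHep vehicle 9 and 15, dHep TCDD 16, dHSC vehicle 17 and dHSC TCDD 18, 2.20% to 4.25% of counts fell outside protein-coding genes, against 1.13% to 1.76% in the other 13. These 5 also stood apart on the first principal component. Their mitochondrially encoded reads were 8.70% to 28.4% of counts, with dHSC TCDD 18 the highest, against 4.52% to 9.29%. Summed over 7 hepatocyte markers, levels were 92475 to 157940 CPM (counts scaled to library size) in WT vehicle and 50256 to 90236 CPM in WT TCDD. In dHep they were 74416 to 170615 CPM with vehicle and 83758 to 111338 CPM with TCDD, and in dHSC 85130 to 103796 CPM and 58882 to 96515 CPM. The hepatocyte sum was lower with TCDD in WT, without overlap, and overlapped in dHep and dHSC. In WT the summed markers of cholangiocytes, neutrophils and B cells were higher with TCDD. Cholangiocyte markers were at 178 to 250 CPM against 48.6 to 65.0, and neutrophil markers at 72.0 to 93.6 against 2.41 to 5.63. B cell markers were at 27.6 to 54.2 against 4.71 to 10.4, with Ms4a1 at 0 throughout. The same sums did not overlap in dHSC either, at 109 to 134 CPM with TCDD against 37.5 to 89.6 for cholangiocytes, 12.3 to 153 against 3.98 to 10.2 for neutrophils and 11.3 to 91.0 against 5.25 to 9.003 for B cells. The part of these sums in the results was not tested. In bulk liver, fewer cells of a type and less RNA per cell cannot be told apart. The 6 kidney markers summed to at most 0.238 CPM in any library. WT vehicle 1 held 1031 CPM of 6 skeletal muscle genes, against at most 2.72 CPM elsewhere. Ahr itself averaged 38.0 to 61.6 CPM in the 6 groups, and as the deleted part of the gene is not given, this level checks no label. The induced AHR targets (Cyp1a1, Cyp1a2, Cyp1b1, Ahrr, Tiparp and Nqo1) summed to 20525 to 29760 CPM in WT TCDD, 10428 to 21250 CPM in dHSC TCDD and 731 to 934 CPM in dHep TCDD. With vehicle they summed to 301 to 1905 CPM in WT, 1325 to 1739 CPM in dHSC and 379 to 531 CPM in dHep. Treated livers thus lay above controls in each genotype, dHep included.

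Hao1 (ENSMUSG00000027261) lies on the minus strand of GRCm38 chromosome 2, from 134497361 to 134554368, and no other annotated gene overlaps it. Its start region and that of Hoga1 are shown because they held the only matches, among the 5 enzymes, to the core letters searched. The letters were GCGTG, the core bound by AHR with its partner ARNT, and ACGTG, the core bound by hypoxia-inducible factors with ARNT, on both strands. The sequences are the 250 bases before the RefSeq start, 5′ to 3′ on the strand of the gene, with matches in capitals.
Hao1, chr2:134554353-134554602, minus strand: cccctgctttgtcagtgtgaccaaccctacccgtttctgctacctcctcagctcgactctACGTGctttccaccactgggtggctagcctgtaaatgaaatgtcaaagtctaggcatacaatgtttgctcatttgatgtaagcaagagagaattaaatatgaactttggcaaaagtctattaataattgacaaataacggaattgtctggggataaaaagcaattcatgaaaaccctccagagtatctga
Hoga1, chr19:42045620-42045869, plus strand: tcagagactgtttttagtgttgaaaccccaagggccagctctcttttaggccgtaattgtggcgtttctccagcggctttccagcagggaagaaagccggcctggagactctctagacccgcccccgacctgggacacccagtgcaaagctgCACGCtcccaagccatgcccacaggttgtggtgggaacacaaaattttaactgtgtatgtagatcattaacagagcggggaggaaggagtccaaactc

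In Hao1 the ACGTG match lay 190 to 186 bases before the start. In Hoga1 the match to GCGTG was on the other strand, 98 to 94 bases before the RefSeq start. The annotated Hoga1 gene begins at 42045610, so this whole window lies inside the gene, downstream of its annotated start. Over the 32851 such windows of the RefSeq table (GRCm38.p6), which can hold several starts of a gene, 28.2% had GCGTG and 16.6% had ACGTG on either strand. The Hao1 window held 4 CG dinucleotides and was 41.6% G or C, and the medians over all windows were 6 and 52.4%. The windows of Agxt and Prodh2 held 2 CG each, that of Hoga1 8 and that of Grhpr 11.

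Hao1 was expressed in all livers with vehicle. It was at 144, 208 and 184 CPM in WT vehicle 1, 7 and 13, on 2518, 3711 and 3198 reads. In WT TCDD 2, 8 and 14 it was at 0.412, 0.285 and 0 CPM, on 9, 5 and 0 reads. All 3 treated WT livers thus lay far below all 3 controls, and 1 of them gave no read at all. In dHSC livers, which keep AHR in hepatocytes, it was at 122, 154 and 107 CPM in vehicle 5, 11 and 17. With TCDD it was at 0.0738, 0.346 and 0.0716 CPM in dHSC 6, 12 and 18, on 1, 7 and 1 reads. The groups again lay apart, and the 6 treated livers of WT and dHSC overlapped each other. In dHep livers Hao1 was at 182, 60.6 and 117 CPM in vehicle 3, 9 and 15, and at 88.1, 140.1 and 86.5 CPM in TCDD 4, 10 and 16. These ranges overlapped, and the treated dHep livers had 2036, 2232 and 1271 reads.

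As a share of the vehicle mean, Hao1 with TCDD was at 0.130% in WT, 0.128% in dHSC and 87.4% in dHep. The ratio of vehicle to TCDD was 769 in WT, with a 95% counting interval of 458 to 1407 from the 14 treated reads, and 781 in dHSC, with 411 to 1708 from 9 reads. These intervals cover counting error only. The fitted log2 difference was -9.59 in WT, -9.41 in dHSC and -0.19 in dHep. The dHep value ran from -0.52 to 0.24 with 1 library left out. In settings chosen after seeing the data it was -0.42 with the percent outside protein-coding genes as a covariate. It was -0.67 without the 5 libraries above 2%, where dHep vehicle is a lone library. Without WT TCDD 2 or dHSC TCDD 12, which hold most of the few remaining reads, the difference between the dHSC and WT responses moved from 0.17 to 0.97 and to -1.08, so the few reads do not order the residual levels of WT and dHSC. From high to low, mean Hao1 was 179 CPM in WT vehicle, 128 in dHSC vehicle, 120 in dHep vehicle, 105 in dHep TCDD, 0.232 in WT TCDD and 0.164 in dHSC TCDD. All neighbours in this order overlapped except dHep TCDD and WT TCDD.

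**Figure D1:**
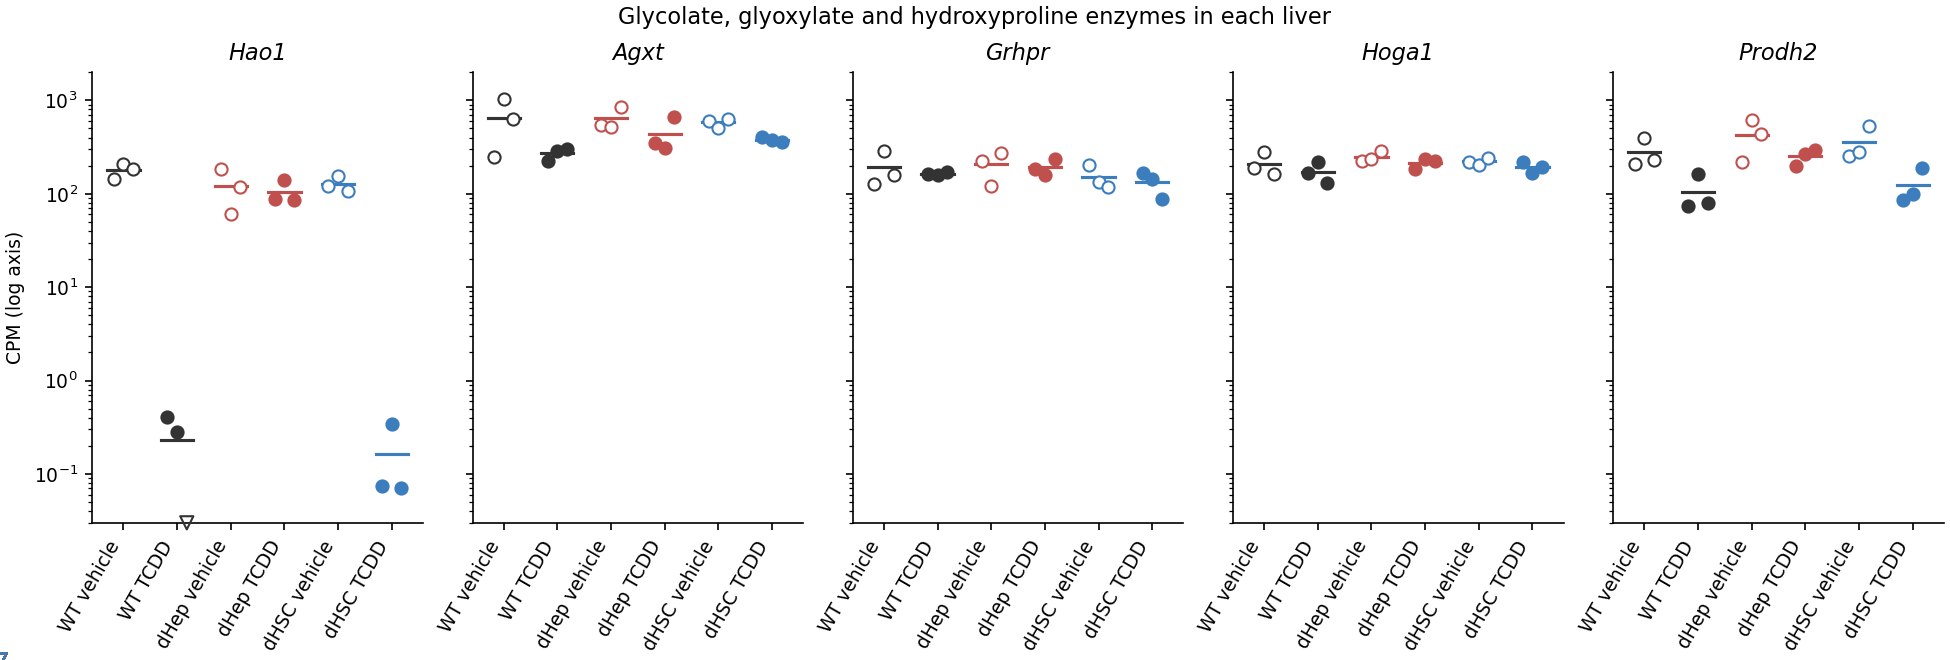
CPM of each enzyme (log axis) in each of the 18 livers by group, with open circles for vehicle, filled circles for TCDD, bars for group means and an open triangle at the axis for 0 reads. Hao1 sits at or below 0.412 CPM in WT TCDD and dHSC TCDD and at 60.6 CPM or above in the other 4 groups, while the other 4 enzymes stay at 73.7 CPM or above in every liver.

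Deletion of AHR alone is not the change for which Hao1 was picked, and it was tested in vehicle livers. The same vehicle livers entered the choice as the reference for the loss with TCDD, so the test is not independent of it. The log2 difference from WT was -0.57 in dHep (95% interval -1.66 to 0.52, adjusted p = 0.633, edgeR) and -0.48 in dHSC (-1.57 to 0.61, adjusted p = 1, edgeR). Neither passed. Without the 5 libraries above 2%, which include dHep vehicle 9 and 15, the dHep difference was 0.03. No gene passed in either vehicle comparison (0% of the 14835 tested by edgeR, with 1025 and 220 at an unadjusted p under 0.05, and 3 and 2 called by DESeq2). None of the 5 enzymes was under an unadjusted p of 0.05 in them or called by DESeq2.

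Agxt, alanine-glyoxylate aminotransferase (ENSMUSG00000026272, chromosome 1, 93135240 to 93145421, plus strand), turns glyoxylate into glycine. It was at 248.8, 1047 and 637 CPM in WT vehicle 1, 7 and 13 and at 222, 288 and 301 CPM in WT TCDD 2, 8 and 14. The treated livers lay close together and the control livers far apart, so that WT vehicle 1 fell among the treated ones. The log2 difference was -1.25 ± 0.42 (SE, 95% interval -2.14 to -0.37) and did not pass (adjusted p = 0.0995, edgeR, n = 3). It passed without WT vehicle 1, the library with muscle RNA (-1.64, adjusted p = 0.0126, edgeR), and was at -0.71 without WT vehicle 7 (adjusted p = 0.518, edgeR).

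In dHSC, Agxt was at 604, 509 and 626 CPM with vehicle and at 404, 374 and 359 CPM with TCDD. All treated livers lay below all controls, and the share of all genes for which this holds is not given. The log2 difference was -0.61 ± 0.41 (interval -1.49 to 0.26, adjusted p = 0.664, edgeR). In dHep it was at 549, 518 and 857 CPM with vehicle and at 349, 306 and 665 CPM with TCDD, with overlap, at -0.54 ± 0.41 (interval -1.42 to 0.33, adjusted p = 0.842, edgeR). Agxt with TCDD was at 42.0% of its vehicle mean in WT, 65.4% in dHSC and 68.6% in dHep. In order of mean level all neighbouring groups overlapped except dHSC TCDD (379 CPM) and WT TCDD (270.5 CPM), the 2 lowest.

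Grhpr, glyoxylate and hydroxypyruvate reductase (ENSMUSG00000035637, chromosome 4, 44981395 to 44990734, plus strand), was at 127, 287 and 160 CPM in WT vehicle and at 162, 159 and 171 CPM in WT TCDD. The treated livers fell within the range of the controls. In dHep it was at 223, 121 and 275 CPM with vehicle and 185, 159 and 238 CPM with TCDD, and in dHSC at 203, 133 and 118 CPM and 168, 144 and 88.4 CPM. Its log2 difference with TCDD was -0.22 in WT (interval -0.99 to 0.54), -0.09 in dHep (-0.86 to 0.67) and -0.18 in dHSC (-0.94 to 0.58). Adjusted p was 0.904, 0.9746 and 0.972 (edgeR). All neighbouring groups in order of mean level overlapped.

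**Figure D2:**
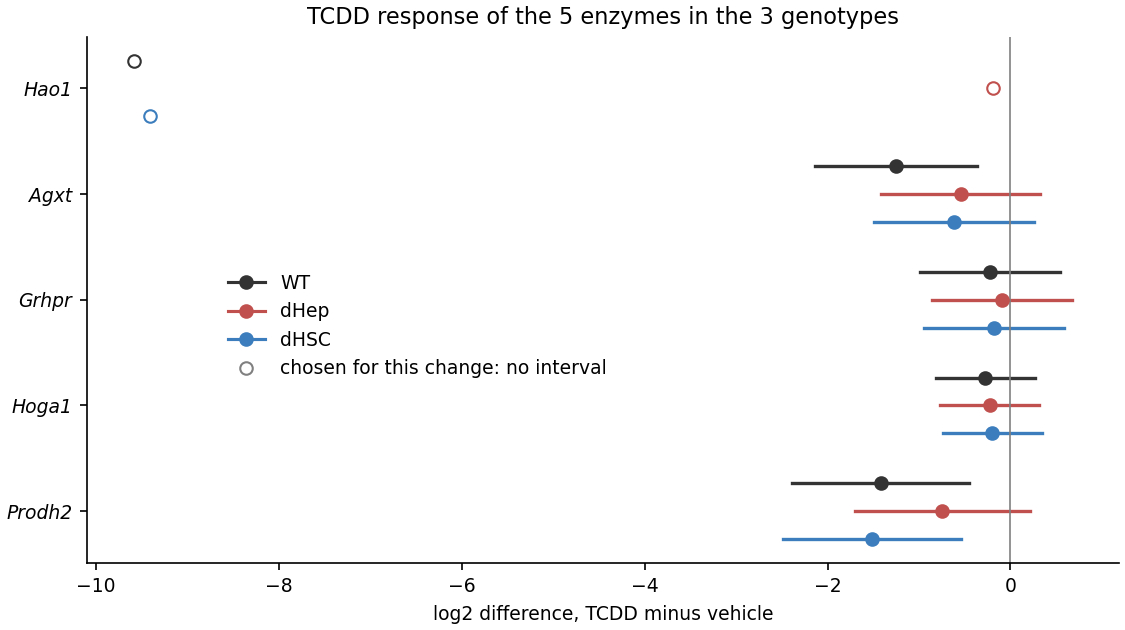
Fitted log2 difference of TCDD minus vehicle for each enzyme in WT, dHep and dHSC, with 95% intervals for the 4 enzymes picked by function and open circles without interval for Hao1, which was picked for this change. Hao1 lies at -9.59 and -9.41 in WT and dHSC and -0.19 in dHep, and the other enzymes lie between -1.51 and -0.09.

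Of the hydroxyproline enzymes, Hoga1 (ENSMUSG00000025176, chromosome 19, 42045610 to 42070953, plus strand) splits 4-hydroxy-2-oxoglutarate into glyoxylate and pyruvate. It was at 187, 277 and 162 CPM in WT vehicle and 165, 221 and 131 CPM in WT TCDD. In dHep it was at 227, 237 and 285 CPM with vehicle and 183, 234 and 225 CPM with TCDD, and in dHSC at 221, 203 and 241 CPM and 219, 166 and 195 CPM. All 18 livers lay between 131 and 285 CPM, and every pair of groups next to each other in mean level overlapped. The log2 differences with TCDD were -0.28 (interval -0.82 to 0.27) in WT, -0.22 (-0.77 to 0.32) in dHep and -0.20 (-0.74 to 0.34) in dHSC, with adjusted p of 0.738, 0.912 and 0.908 (edgeR). The gene 4933411K16Rik overlaps 1.90% of its exon bases, where reads may not have been counted.

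Prodh2 (ENSMUSG00000036892, chromosome 7, 30493622 to 30513402, plus strand), hydroxyproline dehydrogenase, takes the opening step of that route in mitochondria. It was at 209, 399.6 and 232 CPM in WT vehicle 1, 7 and 13 and at 73.7, 161 and 79.5 CPM in WT TCDD 2, 8 and 14. In dHSC it was at 256, 277 and 537 CPM in vehicle 5, 11 and 17 and at 85.5, 99.9 and 189 CPM in TCDD 6, 12 and 18. In both genotypes all treated livers lay below all controls, at 37.4% and 34.99% of the vehicle mean. The share of all genes whose livers lie apart in this way is not given, so the separation is a description. In dHep it was at 217, 619 and 437 CPM in vehicle 3, 9 and 15 and at 199.8, 267 and 293 CPM in TCDD 4, 10 and 16, with overlap, at 59.7%. In order of mean level the break without overlap lay between dHep TCDD (253 CPM) and dHSC TCDD (125 CPM).

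The log2 difference of Prodh2 with TCDD was -1.42 ± 0.46 in WT (interval -2.39 to -0.45, adjusted p = 0.0872, edgeR, n = 3) and -1.51 ± 0.46 in dHSC (-2.49 to -0.54, adjusted p = 0.112, edgeR, n = 3). It was -0.74 ± 0.45 in dHep (-1.70 to 0.21, adjusted p = 0.793, edgeR). None passed. Prodh2 moved with the composition of the libraries: in 6 of 6 groups its highest level was in the library with the largest share of reads from genes that code for no protein, as it was for 4% of all genes tested. The highest dHSC TCDD liver, 18, was also the one with 28.4% mitochondrially encoded reads. The same was so in 1 group for Hao1, 2 for Grhpr and 3 each for Agxt and Hoga1. With that percent as a covariate, a setting chosen after seeing the data, Prodh2 was called in WT (-1.53, adjusted p = 0.000782, edgeR) and in dHSC (-1.66, adjusted p = 0.000772, edgeR) and was at -0.16 in dHep (adjusted p = 0.849, edgeR). Without the 5 libraries above 2% it was at -1.41 in WT (adjusted p = 0.0237, edgeR), -1.52 in dHSC (adjusted p = 0.127, edgeR) and 0.11 in dHep (adjusted p = 0.993, edgeR). The dHep vehicle group is then a lone library, assumed to vary like the others.

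**Figure D3:**
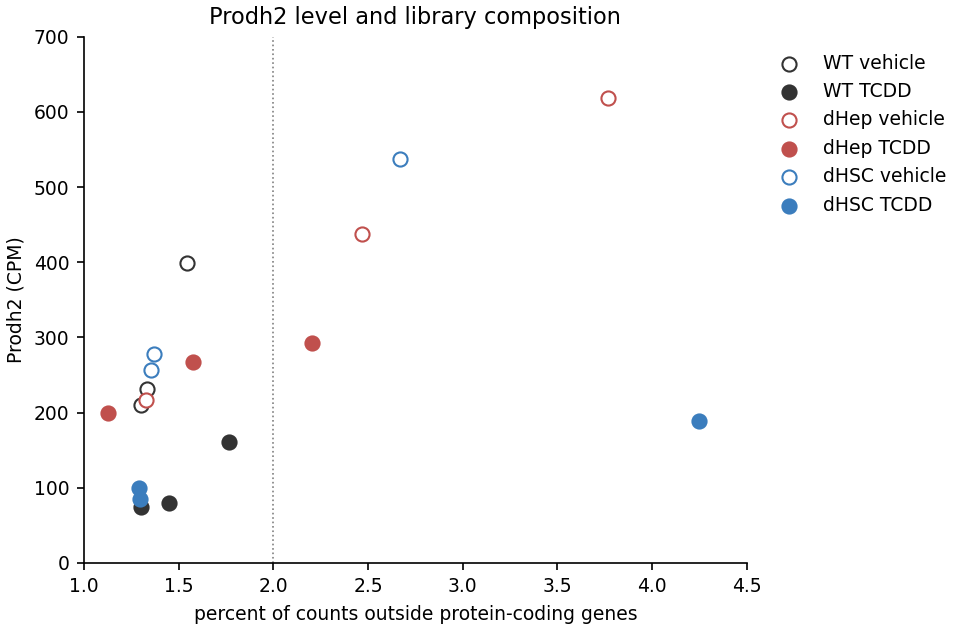
Prodh2 in CPM against the percent of counts outside protein-coding genes in each of the 18 livers, with open circles for vehicle, filled circles for TCDD and a dotted line at 2%. Within each of the 6 groups the library farthest to the right is also the highest, and WT TCDD and dHSC TCDD stay at or below 189 CPM.

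Counted over the 4 enzymes picked by function, 0 of 4 were called with TCDD in WT, where 5.38% of all 14835 genes tested were called (edgeR). At an unadjusted p under 0.05 there were 2, Agxt and Prodh2, beside 16.7% of all genes. DESeq2 called the same 2, among 1343 genes in all (798 by edgeR). In dHSC 0 of 4 were called against 2.55% of all genes, with Prodh2 under an unadjusted p of 0.05, beside 12.2% of all genes. DESeq2 called Prodh2 there, among 732 genes in all (379 by edgeR). In dHep 0 of 4 were called against 0.0674% of all genes, with 0 at an unadjusted p under 0.05 and 0 by DESeq2. All 4 had a log2 difference below 0 in each of the 3 genotypes, and 51.2%, 50.3% and 50.6% of all genes tested did so in WT, dHSC and dHep. The median over the 4 was -0.76 in WT, -0.41 in dHSC and -0.38 in dHep, beside -0.02, -0.00 and -0.01 over all genes.

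Whether the TCDD response differed between genotypes was tested as an interaction. Between dHep and WT 0 of 4 were called, against 0.856% of all genes (edgeR; 0 at an unadjusted p under 0.05 and 0 by DESeq2). The difference of responses was 0.71 ± 0.58 for Agxt (interval -0.52 to 1.94), 0.67 ± 0.64 for Prodh2 (-0.67 to 2.02), 0.13 for Grhpr (-0.95 to 1.21) and 0.05 for Hoga1 (-0.71 to 0.82). With the composition covariate it was 1.37 for Prodh2 (adjusted p = 0.0873, edgeR). Between dHSC and WT 0 of 4 were called, as were 0% of all genes (edgeR; 0 of the 4 and 233 of all at an unadjusted p under 0.05, and 0 of the 4 and 3 of all by DESeq2). The same interaction for Hao1 between dHep and WT was 9.39 and is given as a description, since it holds the change for which Hao1 was picked. Treated livers of WT, dHep and dHSC were each set against their own vehicle livers, and both interactions share the WT livers.

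Per kilobase of exon, Agxt had the highest mean in WT vehicle with 380 ± 235 CPM per kb (SD, n = 3). The counting settings are not given, so exon length may not be the length over which reads were counted. Grhpr followed at 119 ± 52.5, Prodh2 at 114 ± 42.3, Hoga1 at 92.3 ± 26.9 and Hao1 at 78.2 ± 14.1. The order rests on overlapping livers, since the lowest Agxt value, 146.6, lay below the highest of Grhpr, 178.8, and of Prodh2, 162.5. The ratio of Hao1 to Agxt on this scale, taken within a library and so free of scaling, was 0.148 to 0.431 in WT vehicle, 0.127 to 0.226 in dHSC vehicle and 0.0869 to 0.247 in dHep vehicle. With TCDD it was 0 to 0.00138 in WT, 0.000136 to 0.000688 in dHSC and 0.0967 to 0.340 in dHep. The ratio of Prodh2 to Hoga1, the opening and closing enzymes of the hydroxyproline route, was 1.03 to 1.32 in WT vehicle and 0.411 to 0.671 in WT TCDD, without overlap. It was 1.06 to 2.05 and 0.358 to 0.893 in dHSC, also without overlap. In dHep it was 0.877 to 2.39 and 1.003 to 1.20, and the ranges overlapped. These ratios were not tested.

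Genes around these enzymes were taken from 5 lists of 78 genes: other enzymes of glyoxylate and oxalate, proline and hydroxyproline, glycine and serine, other peroxisomal matrix enzymes, and peroxisome assembly. Of them 65 were tested. The other 13 had at most 2 reads in any library, and 12 of the 13 are overlapped by another gene, as Aldh4a1 of the hydroxyproline route and Gnmt, which methylates glycine, are. With TCDD 4 of the 65 were called in WT, all lower, against 5.38% of all genes, where 289 of the 798 calls were lower. In dHSC 2 were called, both lower, against 2.55% of all genes, where 125 of the 379 calls were lower. In dHep 0 were called against 0.0674% (edgeR, and 0 by DESeq2). Between the dHep and WT responses 0 of 65 were called, against 0.856% of all genes (edgeR). DESeq2 called 2 of the 65 there, among 288 genes in all. At an unadjusted p under 0.05 there were 17 of the 65 in WT, 13 in dHSC, 4 in dHep and 9 for that difference of responses, beside 16.7%, 12.2%, 6.70% and 8.43% of all genes. The median log2 difference over the 65 was -0.12 in WT, -0.30 in dHSC and 0.06 in dHep.

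The called peroxisomal enzymes were Crat, Paox and Pipox. Crat, carnitine acetyltransferase, which passes acetyl groups to carnitine, had 46.7 to 69.9 CPM in WT vehicle and 11.7 to 19.5 CPM in WT TCDD, a log2 difference of -1.86 ± 0.33 (adjusted p = 0.00325, edgeR, n = 3). In dHSC it had 24.1 to 51.4 and 7.08 to 12.1 CPM, at -2.03 ± 0.34 (adjusted p = 0.00334, edgeR), and in dHep 39.3 to 53.7 and 34.97 to 64.8 CPM, at 0.11 ± 0.32 (adjusted p = 0.964, edgeR). Treated and control livers lay apart in WT and dHSC and overlapped in dHep. The response of Crat differed between dHep and WT by 1.98 ± 0.46 (interval 1.003 to 2.95), which did not pass (adjusted p = 0.0602, edgeR). In a fit of the dHSC groups alone its call there ended (adjusted p = 0.0909, edgeR).

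Paox, which oxidises acetylated polyamines, had 56.7 to 86.2 CPM in WT vehicle and 28.1 to 32.5 CPM in WT TCDD, at -1.31 ± 0.30 (adjusted p = 0.0160, edgeR). In dHSC it had 71.0 to 95.7 and 25.4 to 48.0 CPM, at -1.20 ± 0.30 (adjusted p = 0.0459, edgeR). Its call ended in WT without TCDD 2, 8 or 14 or vehicle 7 or 13 (adjusted p from 0.0564 to 0.0820, edgeR), and in dHSC without any library but TCDD 6 (adjusted p from 0.0794 to 0.214, edgeR). The differences were then -1.21 to -1.37 in WT and -1.01 to -1.29 in dHSC. In dHep Paox was at -0.36 ± 0.30 (adjusted p = 0.860, edgeR). Pipox, which oxidises sarcosine to glycine in peroxisomes, had 315 to 528 CPM in WT vehicle and 169 to 189 CPM in WT TCDD, at -1.17 ± 0.23 (adjusted p = 0.00651, edgeR). It was at -0.79 ± 0.23 in dHSC (adjusted p = 0.0959, edgeR) and -0.09 ± 0.23 in dHep (adjusted p = 0.960, edgeR).

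The fourth call in WT was Ldhb, a lactate dehydrogenase subunit, at -3.14 ± 0.87 (adjusted p = 0.0460, edgeR). It rested on WT vehicle 1, the library with 1031 CPM of muscle genes, where Ldhb was at 69.5 CPM. In WT vehicle 7 and 13 it was at 2.69 and 3.10 CPM, and in WT TCDD at 2.11 to 3.34 CPM. Without that library its log2 difference was -0.03 (adjusted p = 0.990, edgeR), and the 5 lists held 7 calls. Hao2, a relative of Hao1 that oxidises longer hydroxy acids, was at 5.27 to 8.50 CPM in WT vehicle and 0.413 to 2.66 CPM in WT TCDD. It was not called there (-2.13 ± 0.76, adjusted p = 0.127, edgeR). DESeq2 called it in WT and not in dHSC or dHep. It averaged 14.5 CPM with vehicle and 6.15 CPM with TCDD in dHep (-1.23 ± 0.72, adjusted p = 0.786, edgeR) and 14.3 and 4.74 CPM in dHSC (-1.59 ± 0.73, adjusted p = 0.390, edgeR). Of the 16 hepatocyte transcription factors listed, 0 were called in WT, dHSC or dHep, beside 5.38%, 2.55% and 0.0674% of all genes (edgeR). Their median log2 difference was -0.54 in WT, -0.35 in dHSC and -0.05 in dHep, beside -0.02, -0.00 and -0.01 over all genes. In WT 15 of the 16 lay below 0, in dHSC 12 and in dHep 8, beside 51.2%, 50.3% and 50.6% of all genes.

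**Figure D4:**
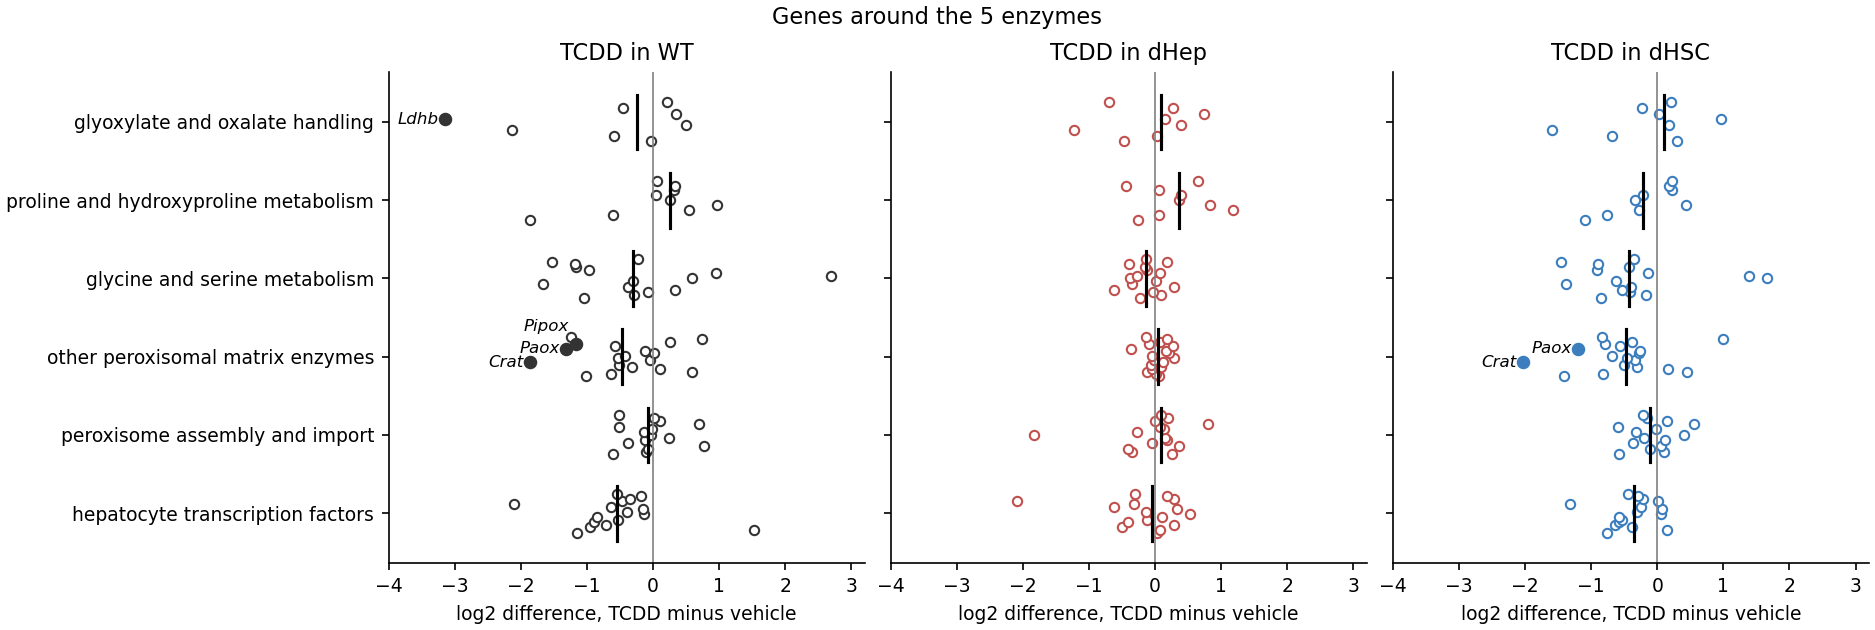
Log2 difference of TCDD minus vehicle for each tested gene of 6 lists in WT, dHep and dHSC, with filled and named points for called genes and black bars for list medians. Crat and Paox are called in WT and dHSC, Pipox and Ldhb in WT, and none in dHep; Ldhb rests on 1 WT vehicle library.

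Near Hao1, 4 of 10 genes annotated within 1 Mb were tested. None was called with TCDD in any genotype, beside 5.38% of all genes in WT, 2.55% in dHSC and 0.0674% in dHep (edgeR). Tmx4 was at -0.54 ± 0.52 in WT, Plcb1 at -1.01 ± 0.74, Bmp2 at 0.35 ± 0.32 and the pseudogene Gm14038 at -0.66 ± 1.05. In dHep Plcb1 was at -1.89 ± 0.75 (adjusted p = 0.661, edgeR), Tmx4 at 0.15, Bmp2 at -0.26 and Gm14038 at 0.03. Tmx4 is the closest, with its start 89.8 kb upstream of that of Hao1.

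By Pearson correlation with Hao1 in log2 CPM over the 18 livers, the nearest of 11752 genes ranked were Ebpl (r = 0.968), Ces3a (0.963), Mmd2 (0.961), Mup3 (0.956), St6galnac6 (0.955), Irx1 (0.954), Car3 (0.954), Pla1a (0.952), Sult2a7 (0.948) and Slc38a11 (0.945). The livers share their group, and the split between the 6 treated WT and dHSC livers and the other 12 enters every value. After removal of group means r ran from -0.01 to 0.36 over the 10. By Spearman correlation none of the 10 was among the top 10. Of the other enzymes, Prodh2 had r = 0.777 with Hao1 (rank 233), Agxt 0.574 (rank 864), Hoga1 0.505 (rank 1163) and Grhpr 0.341 (rank 2176). After removal of group means these were -0.21, -0.03, 0.22 and 0.26.

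Each of the 9 genes with enough reads was left at a larger share of its vehicle level than Hao1 in WT and dHSC, the genotypes whose loss picked Hao1. In dHep 6 of the 9 were left at a smaller share than Hao1. Ces3a, a carboxylesterase, was at 794 CPM in WT vehicle and 48.9 CPM in WT TCDD, 6.16% of vehicle, with 7.19% in dHSC and 82.8% in dHep. Mup3, a major urinary protein, was left at 2.82%, 2.85% and 61.0% in the same order, and Car3, a carbonic anhydrase, at 2.07%, 4.32% and 49.5%. Ebpl, a relative of a sterol isomerase, was at 14.03%, 13.3% and 76.9%. Sult2a7, a sulfotransferase, came closest to Hao1 at 0.416%, 0.451% and 32.4%. Irx1, a homeobox gene, had 1 read in WT TCDD and 3 in dHSC TCDD, too few for a share. Ces3a, Mup3 and Sult2a7 belong to families with near-identical copies, so their counts are uncertain.

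**Figure D5:**
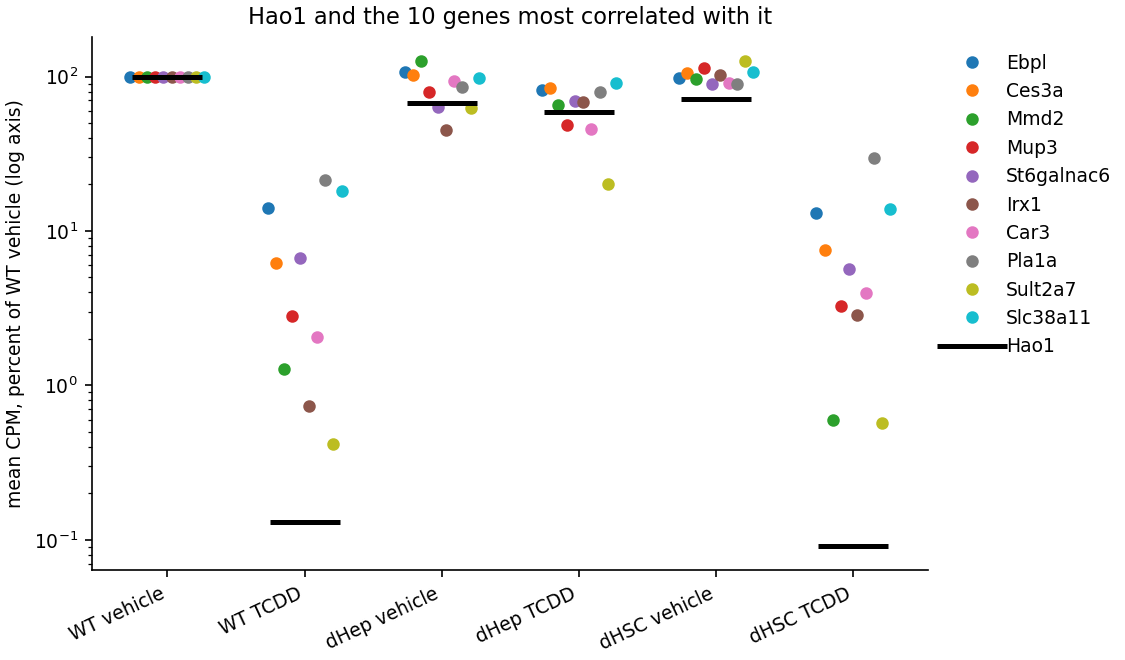
Mean CPM of Hao1 (black bars) and of the 10 genes most correlated with it (coloured points) in each group, as a percent of the gene's WT vehicle mean on a log axis. All 11 are low in WT TCDD and dHSC TCDD. Hao1, picked for its loss with TCDD, is the lowest point there, and Irx1 rests on 1 and 3 reads.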

How the data were processed

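The authors deposited raw read counts per Ensembl gene for each of 18 liver libraries, 1 mouse each, as whole numbers. Per the labels' protocols mRNA was poly-T selected and libraries were made with a NEBNext Ultra kit. The submitters' processing notes name HISAT2 2.1.0 and the build GRCm38, HTSeq 0.11.3, FastQC 0.11.9 and DESeq2 1.22.2, and counting settings are not given in the sources used here. Genes overlapped by others can lose reads. Totals were 12706490 to 27240877 counts.

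Names and positions came from GENCODE M21, which matched all 55536 identifiers. Counts were fitted with edgeR 4.0.16 in R 4.3.3 (filterByExpr, 14835 genes, TMM scaling, all 18 libraries in 1 fit with a mean per group, quasi-likelihood test, Benjamini-Hochberg adjustment over all genes). An adjusted p under 0.05 made a call. The common dispersion was 0.200. Levels are CPM, and intervals are 95% from the fit. The steps were tested on simulated counts with changes put into WT TCDD. Every simulated gene had the same dispersion of 0.2, whereas the spread of real genes differs, so the shares called need not hold for a given gene. Of 50 genes per size, 0% were called rightly at an absolute log2 change of 1, 50% at 2 and 100% at 3 and 5. Among the genes left unchanged 6 were called. Changes of 1 went uncalled there, so a gene not called is not shown to be unchanged.

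The enzymes, lists and tests were chosen with earlier results of these data known. Named genes are the 5 enzymes, up to 5 called genes of each list, the 10 genes most like Hao1 (log2 CPM with a prior count of 2, mean of at least 1 CPM, no predicted-gene names) and genes within 1 Mb of it. Hao2 was named after its values were seen. Replicates are separate mice. The labels pair none of them. Alternatives were RLE scaling, no filter, a minimum of 1 CPM in 3 libraries, fitting the compared groups alone, DESeq2 1.42.0, each library left out, CPM by plain totals, a prior count of 0.5 and Spearman correlation. Leaving out the 5 libraries above 2% of counts outside protein-coding genes, and a covariate of the log2 of that percent, were added after seeing the data, as was a block for runs of 6 mouse numbers.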

Additional observations from a re-analysis of the deposited data

How the results depend on the processing

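The mice of different groups share no number, but each of 3 runs of 6 consecutive numbers holds 1 mouse of every group; the labels do not say what a run shares. Deviations from group means correlated over 0.1 in 11, 5 and 7 of the 15 pairs within the runs and in 37 of 90 pairs across runs, so the runs were not taken as pairs. With the run as a replicate block, added after seeing the data, Prodh2 was called with TCDD in WT (-1.43, adjusted p = 0.0324, edgeR) and in dHSC (-1.52, adjusted p = 0.0403, edgeR), 1 of the 4 enzymes in each. Agxt for dHep with vehicle was then at 0.024, and Paox in dHSC and Ldhb in WT lost their calls (adjusted p = 0.0556 and 0.0964, edgeR).

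Of 550 alternative values for the log2 differences of the 5 enzymes, 488 were counted as the same. Another 10 passed the threshold, 4 moved (all Hao1) and 48 reversed, and the cause was not tested. Hao1 has no threshold in the comparisons with TCDD. Its values with TCDD in dHep ran from -0.52 to 0.24 with 1 library left out and were all counted as the same, a change of sign included. DESeq2 called 1343 genes with TCDD in WT (798 by edgeR), 84 in dHep (10), 732 in dHSC (379), 288 for the dHep minus WT response (127), 3 for the dHSC minus WT response (0), and 3 and 2 for dHep and dHSC with vehicle (0). It called 2 of the 4 enzymes in WT and 1 in dHSC, and 9, 6 and 2 list genes in WT, in dHSC and for the dHep minus WT response. Without the 5 libraries above 2%, the genes called were 1584 in WT, 0 for dHep, 214 for dHSC and 19 for the dHep minus WT response, with 1 of the 4 enzymes and 8 list genes in WT. With the covariate, the same counts were 1926, 41, 792 and 227, with 2 enzymes and 11 list genes in WT, 1 and 6 in dHSC and 1 list gene for the dHep minus WT response. Without a filter 19 genes were called in dHep and 1 list gene in dHSC. Fits of the compared groups alone called 0 genes in dHep and 75 in dHSC, with 0 list genes in dHSC.

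With 1 library left out at a time, the genes called were 445 to 921 for WT, 0 to 11 for dHep, 169 to 297 for dHSC and 51 to 130 with the dHep minus WT response. The enzymes called in WT were 0 to 1, and list genes 2 to 7 in WT, 1 to 2 in dHSC and 0 to 1 for the dHep minus WT response. The log2 difference of Grhpr then ran from -0.45 to 0.19 with TCDD in WT, -0.36 to 0.17 in dHep and -0.39 to 0.082 in dHSC, from -0.28 to 0.40 and -0.38 to 0.31 for the dHep and dHSC minus WT responses, and from -0.15 to 0.52 and -0.61 to 0.081 for dHep and dHSC with vehicle. Hoga1 ran from -0.20 to 0.27 and -0.19 to 0.28 for those responses and from -0.064 to 0.35 for dHSC with vehicle. Prodh2 ran from -0.52 to 0.34 for the dHSC minus WT response and from -0.068 to 0.70 for dHSC with vehicle. Agxt ran from -0.40 to 0.53 and -0.54 to 0.39 for dHep and dHSC with vehicle.

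Without the 5 libraries, Prodh2 reversed to 0.11 with TCDD in dHep, -0.37 for dHep with vehicle and -0.069 for dHSC with vehicle, Hao1 to 0.031 for dHep with vehicle and Grhpr to -0.16 for the dHep minus WT response. With the covariate, Prodh2 was at -0.13 for dHep with vehicle and Grhpr at -0.028 for that response. Agxt for dHep with vehicle, at -0.0062, became 0.039 with RLE scaling, 0.037 with DESeq2, 0.010 with the 1 CPM minimum and 0.029 with the compared groups alone. Of the 10 genes most like Hao1, 8 were shared with a prior count of 0.5, 0 by Spearman correlation and 8 to 10 with a library left out. Depth limits Hao1 in WT TCDD and dHSC TCDD, where 14 and 9 reads remain.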
